A study of Mus musculus with 29 samples.

Results

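The genes described here are Hsd3b2, Hsd3b3, Hsd3b5 and Hsd3b7, 4 of the 55421 genes in a read count table of mouse liver, and they were taken from it by their symbols. They were chosen by their CPM (counts scaled to a common library size after TMM normalization) across the groups of these same mice, so their levels and fold changes are given as a description and without a p-value. Polyadenylated RNA of whole liver was sequenced in bulk in 6 groups. Young vehicle mice were C57BL6/N and 5 months old, and 5 females and 4 males had counts. Old vehicle and old HDM201 mice were C57BL/6J, aged 20 months in females and 24 months in males. Counts were at hand for 4 old vehicle females, 5 old HDM201 females, 4 old vehicle males and 5 old HDM201 males, 27 mice in all. HDM201, an inhibitor of the p53 antagonist MDM2, was given by mouth each day at 10 mg/kg for 14 days, and vehicle was buffered methylcellulose. The labels give the strain as the genotype and name no engineered allele. Age and substrain cannot be told apart in this design, and the old females and old males differed in age. In bulk tissue, fewer cells of a type and less RNA per cell cannot be told apart.

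The Hsd3b family encodes 3-beta-hydroxysteroid dehydrogenases. The classical enzymes oxidize and isomerize precursor steroids such as pregnenolone and dehydroepiandrosterone into hormonally active ketosteroids such as progesterone and androstenedione. Rodents have an expanded cluster of these genes, and several of its members are expressed in liver and kidney rather than in adrenal gland and gonads. In mice, Hsd3b2 and Hsd3b3 encode enzymes of the dehydrogenase and isomerase type. Hsd3b5 encodes a reductase that inactivates ketosteroids and is known as a male-specific liver gene. Hsd3b7 lies elsewhere in the genome and encodes the sterol dehydrogenase that acts early in bile acid synthesis. Sex-biased liver genes are known to follow the pattern of growth hormone secretion, which differs between male and female mice.

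In the mm10 annotation (GENCODE M21), 3 of the 4 genes lie on the minus strand of chromosome 3. Hsd3b5 spans 98618634 to 98630252, Hsd3b2 spans 98709255 to 98724543 and Hsd3b3 spans 98741523 to 98763127. Hsd3b7 is on the plus strand of chromosome 7, from 127800604 to 127803802. The coding sequences of Hsd3b2 and Hsd3b3 were 95.1% identical, and each was 81.3% identical to that of Hsd3b5. Hsd3b5 was closest to its neighbour Hsd3b4, at 95.2%. Hsd3b7 was at most 64.6% identical to any of the 3 other genes. The longest run of coding sequence shared exactly by Hsd3b2 and Hsd3b3 is shown because reads inside it fit both genes. It is exonic, covers coding bases 153 to 380 and is 228 bases long. The same bases of Hsd3b5 differ at 53 positions, which stand in capitals.
Hsd3b2 and Hsd3b3: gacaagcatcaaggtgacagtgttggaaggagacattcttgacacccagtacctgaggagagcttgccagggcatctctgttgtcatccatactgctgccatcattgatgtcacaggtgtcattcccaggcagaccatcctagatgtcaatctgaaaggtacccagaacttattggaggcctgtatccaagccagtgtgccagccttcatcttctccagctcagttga
Hsd3b5: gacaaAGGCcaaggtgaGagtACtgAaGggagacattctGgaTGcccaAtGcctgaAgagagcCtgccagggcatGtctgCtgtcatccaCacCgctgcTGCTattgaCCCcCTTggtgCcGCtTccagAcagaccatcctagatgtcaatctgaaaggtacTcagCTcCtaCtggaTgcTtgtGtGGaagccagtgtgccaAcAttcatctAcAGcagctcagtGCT

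Of all 50-base windows along the annotated transcripts, 26.9% in Hsd3b2, 8.73% in Hsd3b3 and 21.2% in Hsd3b5 also occurred in some other annotated gene. For Hsd3b2 and Hsd3b3 the partner with the most shared windows was the other one of the pair, with 405 windows. For Hsd3b5 these partners were Hsd3b4 and the predicted gene Gm10681, with 273 windows each. Hsd3b4 and Gm10681 had 0 reads in all 27 mice, so no counted read was placed on the closest relatives of Hsd3b5. Hsd3b6, a close relative of Hsd3b2 in sequence, also had 0 reads in all mice. In FPKM, a level scaled by transcript length and depth, both were low but above 0 in most mice. Hsd3b6 reached 0.489 FPKM (old vehicle male 5) and Hsd3b4 0.148 (young vehicle male 4). Every 50-base window of Hsd3b4 occurred in another gene, whereas 15.7% of those of Hsd3b6 did. Hsd3b1, the adrenal and gonadal form, had 135 reads over all 27 mice, 130 of them in females and 5 in males. Hsd3b8 and Hsd3b9 were not used here. How reads with several matches were handled is not given in the sources used here, so the split of reads between Hsd3b2, Hsd3b3 and Hsd3b5 is uncertain.

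The 250 bases before the RefSeq start of Hsd3b5 and of Hsd3b3 (GRCm38.p6) were the most alike of all promoter pairs in the family, with 75.9% identity over aligned bases. They are shown because Hsd3b5 and Hsd3b3 differ in their pattern over the groups although their promoters are the closest pair. Both are on the minus strand, Hsd3b5 at chr3:98645535-98645784 and Hsd3b3 at chr3:98763129-98763378. The Hsd3b5 window lies upstream of the gene's span in GENCODE M21. Capitals mark exact runs of at least 10 bases that the pair shares, 35 bases in each.
Hsd3b5: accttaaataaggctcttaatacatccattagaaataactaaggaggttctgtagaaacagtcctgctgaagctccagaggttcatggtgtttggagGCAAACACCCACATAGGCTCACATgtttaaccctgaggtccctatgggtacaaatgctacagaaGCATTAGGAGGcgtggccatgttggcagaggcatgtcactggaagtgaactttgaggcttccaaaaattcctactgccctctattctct
Hsd3b3: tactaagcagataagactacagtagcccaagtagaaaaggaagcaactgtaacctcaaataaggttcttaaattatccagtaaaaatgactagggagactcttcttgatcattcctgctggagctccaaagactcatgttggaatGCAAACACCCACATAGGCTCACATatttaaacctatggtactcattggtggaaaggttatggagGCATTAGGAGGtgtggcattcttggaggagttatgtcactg

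The 250 bases before each RefSeq start were searched on both strands for 4 letter patterns. TTCNNNGAA, the core bound by STAT factors, was absent from the windows of Hsd3b2, Hsd3b3 and Hsd3b5. It occurred in Hsd3b7 at base -21 from the start, and in 7.02% of the 32851 RefSeq promoters. TGTTTA, a forkhead core, occurred in Hsd3b5 at base -130 and in 12.0% of all promoters. TGTTCT, a half-site of steroid receptors, occurred in Hsd3b2 at base -246 and in 16.1% of promoters. The fourth, a palindromic core of HNF1 sites, was in none of the 4 genes and in 0.116% of promoters. These matches describe letters, not binding.

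Total counts ranged from 16485900 to 23570458 per mouse. The levels of Xist and Ddx3y matched the labelled sex in 29 of 29 mice. Hepatocyte markers were abundant in all groups, with a summed CPM of 75486 to 157490 over 6 genes. Of 7 markers of adrenal and gonadal steroid-producing cells, Cyp11b1, Cyp11b2 and Mc2r had 0 reads in all mice and Cyp11a1 reached at most 0.221 CPM. The others were present, Star at 1.78 to 3.54, Insl3 at 0.287 to 1.41 and Cyp21a1 at 0 to 6.74 CPM. The 6 kidney markers together reached at most 0.109 CPM.

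Hsd3b5 was the most sex-dependent of the 4 genes. In young vehicle males its CPM was 103, 84.4, 41.5 and 109 in mice 1 to 4. In young vehicle females it was 6.16, 6.42, 5.14, 1.84 and 0.491 in mice 1 to 5. The CPM of young males and young females did not overlap, and the lowest female was 13.1-fold below the highest female. The mean was 84.6 ± 30.6 CPM (SD, n = 4) in young males and 4.01 ± 2.69 (SD, n = 5) in young females, a log2 fold change of 4.42 (SE 0.49).

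Old females had almost no Hsd3b5 reads. Old vehicle females had 1, 0, 2 and 2 reads, and old HDM201 females had 2, 1, 3, 2 and 2 reads. Every old female was below every young female, and the old vehicle and old HDM201 females overlapped. Over the groups, 363 reads in young females stood against 5 in old vehicle females. Relative to the library sizes after TMM normalization the ratio was 63.4 (exact Clopper-Pearson 95% interval 26.9 to 196, which covers counting error only). The fitted log2 fold change of old against young vehicle females was -5.84 (SE 0.90). Because each old female had 3 reads or fewer, no fold change of HDM201 against vehicle is given, and the gene did not pass the filter on low counts in that comparison.

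In old males Hsd3b5 varied more from mouse to mouse than any other member. Old vehicle males 2 to 5 had 1.73, 150, 20.9 and 101 CPM, an 87.1-fold range. Old HDM201 males 1 to 5 had 61.1, 25.8, 39.1, 10.5 and 25.4 CPM. All HDM201 males lay between the lowest and the highest vehicle male, and old vehicle males overlapped young vehicle males. The log2 fold change was -0.30 (SE 0.86) for old against young vehicle males and -1.07 (SE 0.85) for HDM201 against vehicle in old males. Without old vehicle male 2 these values were 0.10 and -1.48, and without old vehicle male 3 they were -1.04 and -0.34. The difference of mean log2(FPKM + 0.1) with HDM201 in males had the other sign, at 0.23. Old vehicle male 2, with 33 reads, was also the only male with counts within the range of the young females, whose highest value was 6.42 CPM. The 12 other males with counts had at least 10.5 CPM.

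**Figure D1:**
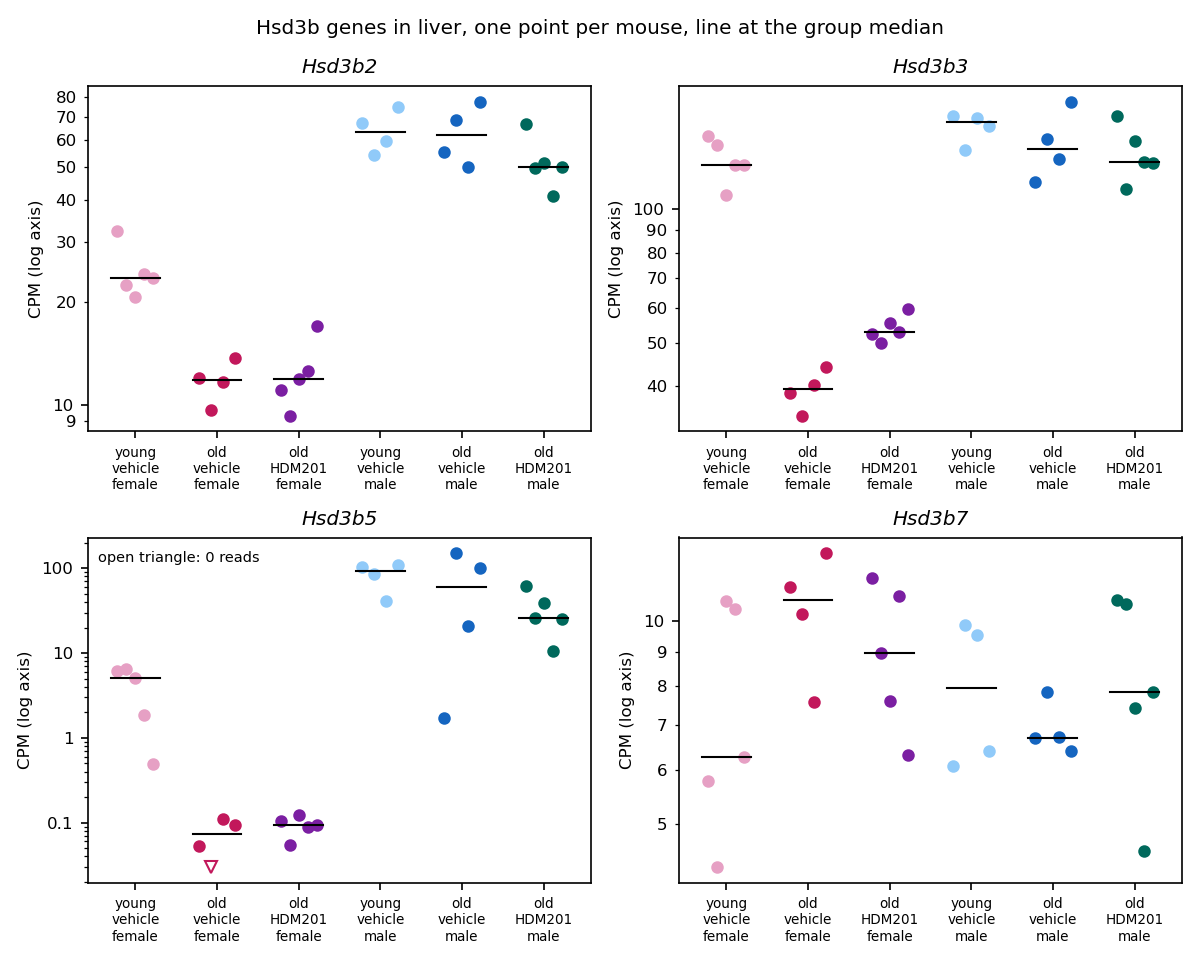
CPM of each gene (log axis) for each of the 27 mice with counts, by group, with a line at the group median and an open triangle for a mouse with 0 reads. Hsd3b2 and Hsd3b5 were highest in the male groups, Hsd3b3 was low only in old females, and Hsd3b7 overlapped between all groups.

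Hsd3b2 was also higher in males. Its CPM in young vehicle males was 67.0, 54.1, 59.4 and 74.5. In young vehicle females it was 32.4, 22.6, 20.7, 24.2 and 23.6. The lowest of all 13 males had 41.0 CPM and the highest of all 14 females 32.4 CPM, so the sexes did not overlap at any age. The log2 fold change of young males against young females was 1.38 (SE 0.14).

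Old vehicle females had 12.0, 9.68, 11.7 and 13.8 CPM of Hsd3b2, all below the young females. Old HDM201 females had 11.1, 9.33, 12.0, 12.6 and 17.1 CPM and overlapped the old vehicle females. The log2 fold change was -1.04 (SE 0.14) for old against young vehicle females and 0.07 (SE 0.16) for HDM201 against vehicle. In males the 3 groups overlapped, with means of 63.8 ± 8.93 CPM in young vehicle (SD, n = 4), 62.7 ± 12.6 in old vehicle (SD, n = 4) and 51.7 ± 9.28 in old HDM201 males (SD, n = 5). The male log2 fold changes were -0.02 (SE 0.15) with age and -0.27 (SE 0.15) with HDM201.

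Hsd3b3 gave the most reads of the 4 genes in every group except for single males with high Hsd3b5. Its CPM in young vehicle females was 146, 140, 108, 126 and 126, which overlapped the young vehicle males at 162, 136, 160 and 154. The log2 fold change of young males against young females was 0.26 (SE 0.10). Unlike Hsd3b2 and Hsd3b5, Hsd3b3 thus had overlapping CPM between the sexes in young mice.

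In old vehicle females Hsd3b3 stood at 38.6, 34.4, 40.3 and 44.3 CPM, far below every other group but old HDM201 females. Old HDM201 females had 52.4, 50.0, 55.5, 53.1 and 59.7 CPM. Every HDM201 female was above every old vehicle female and below every young female. The mean was 129 ± 14.8 CPM in young vehicle (SD, n = 5), 39.4 ± 4.09 in old vehicle (SD, n = 4) and 54.1 ± 3.66 in old HDM201 females (SD, n = 5). The log2 fold change was -1.69 (SE 0.10) with age and 0.45 (SE 0.08) with HDM201. These comparisons share the old vehicle females. In males the groups overlapped, at 153 ± 11.9 CPM in young vehicle (SD, n = 4), 141 ± 25.5 in old vehicle (SD, n = 4) and 134 ± 19.3 in old HDM201 mice (SD, n = 5). The male log2 fold changes were -0.12 (SE 0.13) with age and -0.06 (SE 0.14) with HDM201.

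**Figure D2:**
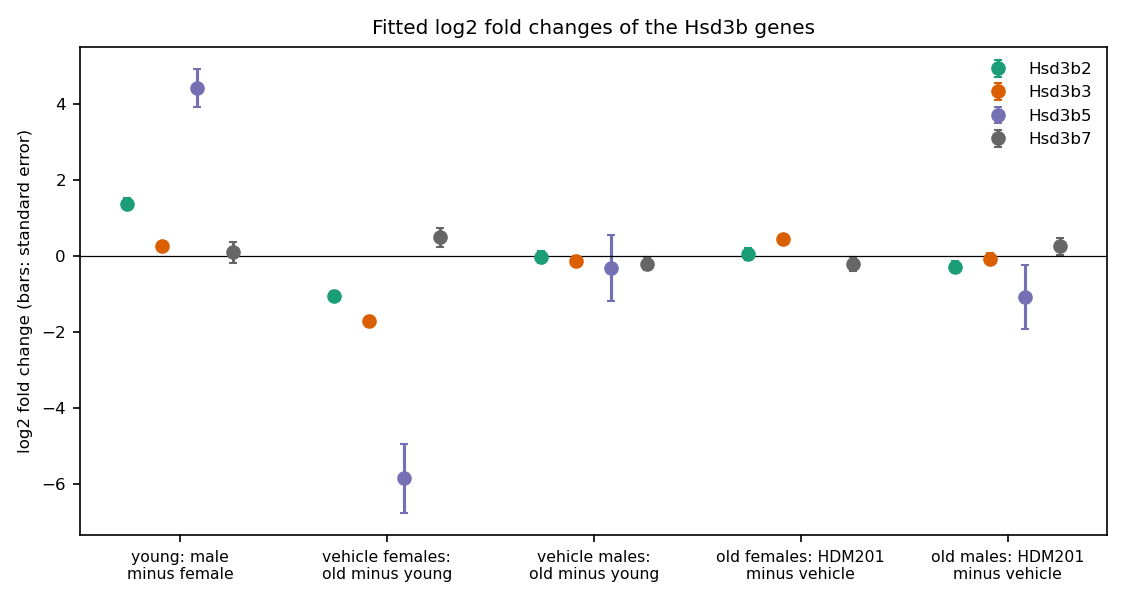
Fitted log2 fold changes of the 4 genes in 5 comparisons, with standard errors as bars. Hsd3b5 is missing for HDM201 in old females, where it did not pass the filter on low counts, and its value for age in females was -5.84.

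The age differences of the chromosome 3 genes were set side by side between the sexes in a model with a sex by age term. The male minus the female log2 fold change with age was 1.01 (SE 0.21) for Hsd3b2, 1.56 (SE 0.17) for Hsd3b3 and 5.52 (SE 2.04) for Hsd3b5. For the HDM201 effect the male minus female difference was -0.35 (SE 0.24) for Hsd3b2 and -0.52 (SE 0.17) for Hsd3b3. For Hsd3b7 these differences were -0.70 (SE 0.34) with age and 0.46 (SE 0.31) with HDM201.

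The number of members past an FDR of 0.05 in edgeR is given only beside the share over all genes tested. With age in females it was 3 of 4, where 31.8% of genes passed (2392 genes higher and 2138 lower in old mice). With age in males it was 0 of 4, where 3.69% passed (2.76% higher and 0.931% lower). With HDM201 it was 1 of 3 tested members in females, where 5.25% passed (2.35% higher and 2.90% lower), and 0 of 4 in males, where 1 gene of 14109 passed (0.00709%). Between the sexes in young mice it was 2 of 4, where 10.5% passed (4.91% higher and 5.63% lower in males). For the sex difference in the age effect it was 2 of 4, where 3.92% passed (1.90% higher and 2.02% lower). For that in the HDM201 effect it was 0 of 4, where 0.107% passed (0.0334% higher and 0.0735% lower). The groups of mice did not overlap in CPM for 25.8% of genes tested with age in females, 13.5% with age in males, 9.93% with HDM201 in females, 4.03% with HDM201 in males and 12.8% between the young sexes. The number of genes called moved when single mice were left out, from 185 to 956 with HDM201 in females (758 with all mice) and from 144 to 579 with age in males (507 with all mice). Since the same values chose the members, nothing is read from these counts.

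Among reads on Hsd3b2, Hsd3b3 and Hsd3b5 together, the makeup differed by group. Hsd3b3 took 81.9% ± 1.96 in young vehicle females (SD, n = 5) and 51.3% ± 6.91 in young vehicle males (SD, n = 4). Hsd3b5 took 2.51% ± 1.63 in young vehicle females and 27.5% ± 7.77 in young vehicle males. In old vehicle males the Hsd3b5 share ran from 1.01% to 41.4%. The number of Hsd3b3 reads per Hsd3b2 read was 5.29 ± 0.60 in young vehicle females (SD, n = 5), 3.36 ± 0.17 in old vehicle females (SD, n = 4) and 4.48 ± 0.69 in old HDM201 females (SD, n = 5). It was 2.43 ± 0.26 in young vehicle (SD, n = 4), 2.26 ± 0.24 in old vehicle (SD, n = 4) and 2.63 ± 0.34 in old HDM201 males (SD, n = 5). The pair of members closest in coding sequence thus did not keep a fixed ratio of reads over the groups.

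**Figure D3:**
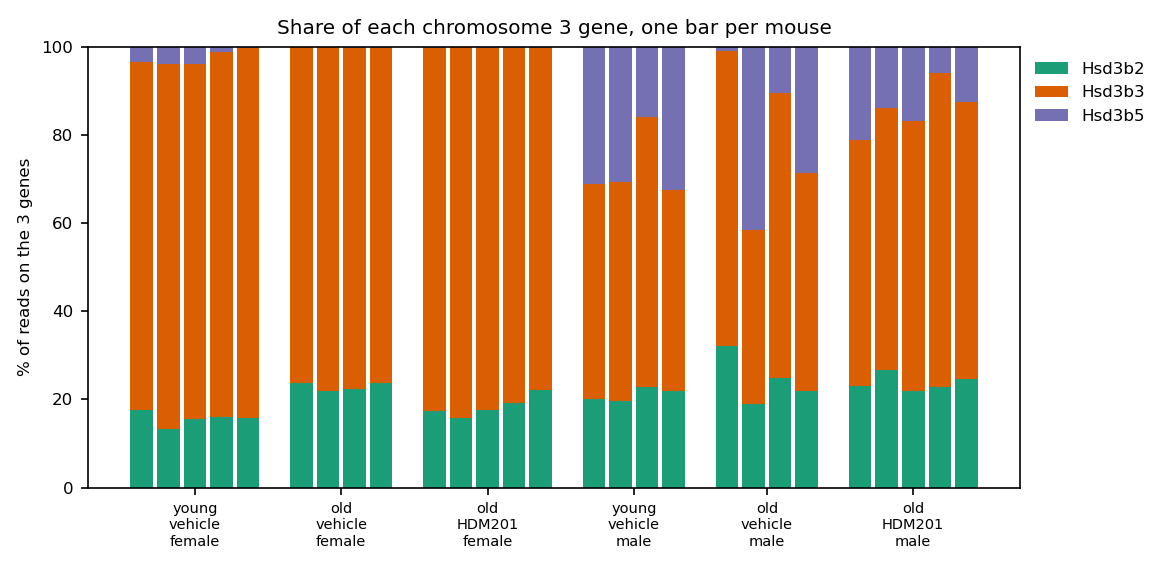
Share of the reads on Hsd3b2, Hsd3b3 and Hsd3b5 that each gene took, in percent, with 1 bar per mouse. Hsd3b5 took 0.0% to 3.86% of these reads in females and up to 41.4% in males.

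Hsd3b7 showed none of these patterns in its counts. Its CPM ran from 4.32 to 10.7 in young vehicle females, 7.58 to 12.6 in old vehicle females and 6.32 to 11.6 in old HDM201 females. In males it ran from 6.08 to 9.84 in young vehicle, 6.42 to 7.83 in old vehicle and 4.57 to 10.7 in old HDM201 mice. Every pair of groups compared overlapped. The log2 fold changes were 0.49 (SE 0.24) with age in females, -0.19 (SE 0.18) with age in males, -0.21 (SE 0.19) with HDM201 in females, 0.26 (SE 0.22) with HDM201 in males and 0.10 (SE 0.27) between the young sexes.

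The counts and the FPKM of Hsd3b7 differed far more than those of the other members, and the cause was not tested. Of its 2769 merged exon bases, 2746 (99.2%) are also exonic in another annotated gene and 23 are not. Gm49388, a predicted protein-coding gene on the same strand, shares 1717 of them, and 9430064I24Rik on the opposite strand shares 1729. Gm49388 had 0 to 2 reads per mouse and 9430064I24Rik had 43 to 204. In FPKM, the fragment level scaled by transcript length and sequencing depth that the authors made with Cufflinks, Hsd3b7 stood at 98.3 to 336 in the 29 mice. Its FPKM was 73.9 times its CPM per kilobase of merged exons, against a median of 1.51 over 12506 genes with a mean CPM of at least 1. Only 20 of these genes, Hsd3b7 included, reached that ratio. Per mouse the Hsd3b7 ratio ran from 40.6 to 102, and its log2 FPKM and log2 CPM correlated at 0.72 (Pearson r, 27 mice). For the other members the median ratio per mouse was 0.93 for Hsd3b2, 4.71 for Hsd3b3 and 0.91 for Hsd3b5.

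In FPKM, Hsd3b7 was 141 ± 37.2 in old vehicle males (SD, n = 5) and 226 ± 43.9 in old HDM201 males (SD, n = 5), which overlapped. In females it was 214 ± 81.8 in young vehicle (SD, n = 5), 249 ± 39.0 in old vehicle (SD, n = 4) and 286 ± 49.3 in old HDM201 mice (SD, n = 5), and all 3 overlapped. The difference of mean log2(FPKM + 0.1) with HDM201 was 0.70 in males and 0.19 in females, where the fit to counts gave 0.26 and -0.21.

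**Figure D4:**
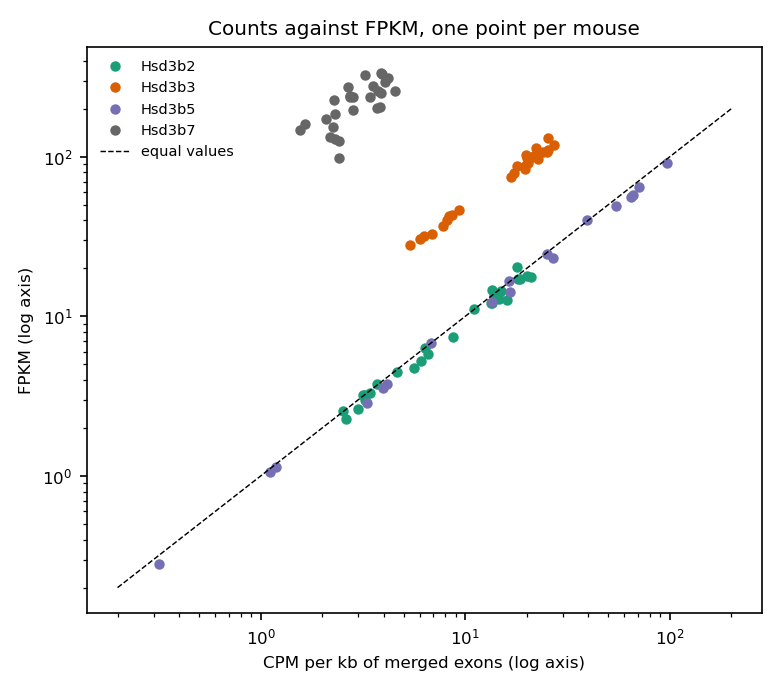
FPKM against CPM per kilobase of merged exons, both on log axes, with 1 point per gene and mouse that had at least 10 reads; the dashed line marks equal values. Hsd3b2 and Hsd3b5 lie near the line, Hsd3b3 lies above it and Hsd3b7 farthest above.

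Per length, the order of the genes depended on the scale. In CPM per kilobase of merged exons, young vehicle males had 54.6 ± 19.8 of Hsd3b5, 24.0 ± 1.87 of Hsd3b3, 17.3 ± 2.42 of Hsd3b2 and 2.87 ± 0.72 of Hsd3b7 (SD, n = 4). In FPKM the medians of young vehicle males were 190 for Hsd3b7, 107 for Hsd3b3, 49.5 for Hsd3b5 and 12.9 for Hsd3b2 (n = 5). Hsd3b3 has 6396 merged exon bases and Hsd3b5 has 1549, although both have 1119 coding bases. In young vehicle females Hsd3b3 was above Hsd3b2 and Hsd3b5 on both scales, with 20.2 ± 2.31, 6.69 ± 1.22 and 2.59 ± 1.73 CPM per kilobase (SD, n = 5).

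FPKM covered the 2 male mice without counts. Young vehicle male 5 had 1.59 FPKM of Hsd3b5, 4.89 of Hsd3b2 and 36.5 of Hsd3b3. Young vehicle males 1 to 4 had 23.1 to 64.2, 12.7 to 17.9 and 100 to 110 FPKM of these genes. Young vehicle male 5 was thus below all other males for Hsd3b2 and Hsd3b3, and its Hsd3b7, 190 FPKM, lay inside their range. In this mouse Hsd3b2 and Hsd3b5 lay inside the ranges of the young vehicle females, 4.74 to 7.39 and 0.280 to 3.79 FPKM. Its FPKM of the acute phase gene Saa1, picked after its value was seen, was 26523, against 43.2 to 5783 in young vehicle males 1 to 4. In CPM, Saa1 was 20.7, 793, 2662 and 841 in young vehicle males 1 to 4 and 12.9 to 29.6 in the young vehicle females, so the comparison of the young sexes also set 3 of 4 males with high Saa1 against females with low Saa1. Hsd3b2 and Hsd3b5 were at 67.0 and 103 CPM in young vehicle male 1, the only 1 of these 4 males with low Saa1. The part of the acute phase in these values was not tested. Old vehicle male 1 had 9.77 FPKM of Hsd3b5, 12.7 of Hsd3b2 and 110 of Hsd3b3, inside the range of the other old vehicle males. With young vehicle male 5, the difference of mean log2(FPKM + 0.1) between young males and females was -0.04 for Hsd3b3, and it was 0.26 over the mice with counts.

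**Figure D5:**
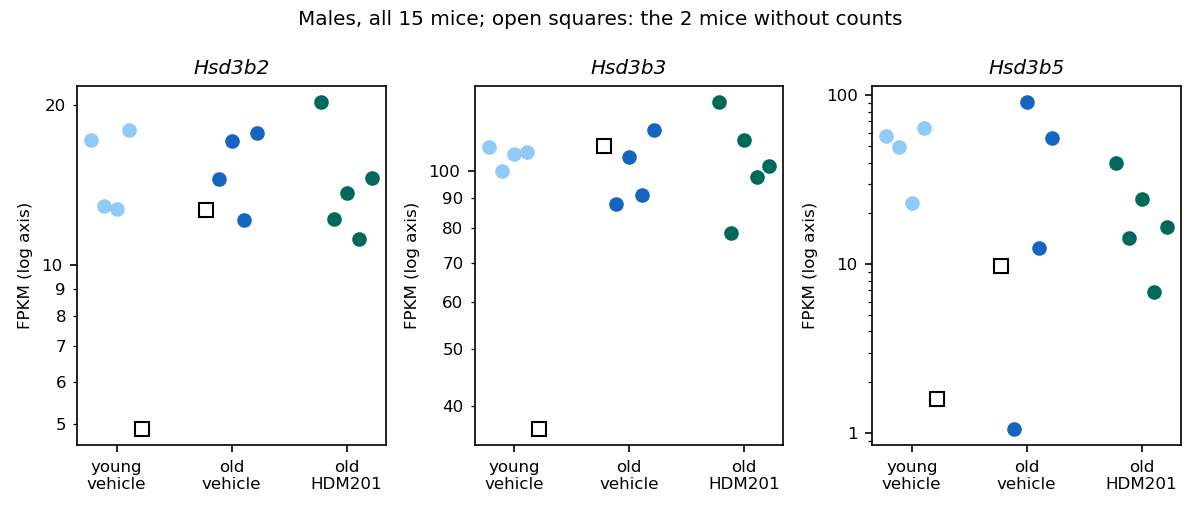
FPKM (log axis) of Hsd3b2, Hsd3b3 and Hsd3b5 in all 15 males by group, with open squares for the 2 mice without counts. Young vehicle male 5 is the lowest male for Hsd3b2 and Hsd3b3, and old vehicle male 2 is the lowest for Hsd3b5 at 1.06 FPKM.

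Within groups, mice with more Hsd3b2 had more Hsd3b3. The Pearson correlation of their deviations from the group means of log2(CPM + 1) was 0.80 over 14 females and 0.75 over 13 males. Hsd3b5 followed both in males, with 0.68 for Hsd3b2 and 0.67 for Hsd3b3. In females the values were 0.12 and 0.20, but each old female had 3 reads or fewer of Hsd3b5. The female values thus rest mostly on the young females and cannot be set against the male values. Hsd3b7 against Hsd3b3 gave -0.55 in females and -0.04 in males, in Hsd3b7 counts that differ from its FPKM. The points share libraries and, for the chromosome 3 genes, reads, so these values are a description.

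Over all 27 mice, the pattern of Hsd3b2 was most like that of Cyp2d9, a male-biased cytochrome P450 (Pearson r = 0.97 of log2(CPM + 1) among 12775 genes with a mean CPM of at least 1). Susd4, Gm3839, Ces3a and Dpy19l1 followed, at 0.95 to 0.96. Hsd3b3 was most like Slco1a1, an organic anion transporter (r = 0.94), then Il1rap, Srd5a1, Qprt and Cyp2c67, at 0.91 to 0.92. Hsd3b5 was most like Carmil1 (r = 0.96), then Cmah, Cyp2d9, Cyp2u1 and Mup14, at 0.94 to 0.95. By its counts, which differ from its FPKM, Hsd3b7 was most like Clpx (r = 0.89), then Asap2, Slc30a10 and the clock gene Arntl, at 0.85 to 0.87. Cyp2d9 was the one gene named for both Hsd3b2 and Hsd3b5. With 6 groups behind the 27 points, differences between groups carry much of each r.

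Other genes of steroid metabolism were tested in the same fits. With age in vehicle females, 15 of 26 tested genes fell and 1 rose (median log2 fold change -0.41, against 0.01 over all genes). Srd5a1, a steroid 5-alpha-reductase, fell by 1.25 in log2 (FDR 0.000167 in edgeR, SE 0.16), from 60.5 ± 15.1 CPM in 5 young to 25.2 ± 2.85 in 4 old females. Cyp17a1, the steroid 17-alpha-hydroxylase, fell by 0.88 (SE 0.17, FDR 0.00211), and Hsd17b7, a dehydrogenase also used in cholesterol synthesis, fell by 0.61 (SE 0.14, FDR 0.0064). Hsd3b2, Hsd3b3 and Hsd3b5 were lower in the same mice. With age in males 0 of 27 tested genes of this list passed in edgeR.

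With HDM201 in old females, 2 of 26 steroid genes rose and 0 fell, where 2.35% of all genes rose and 2.90% fell. Hsd17b7 rose by 0.67 in log2 (FDR 0.00999 in edgeR, SE 0.11) and Srd5a2, another 5-alpha-reductase, by 0.70 (SE 0.17, FDR 0.0357). The call of Srd5a2 was lost without 8 of the 9 mice, each left out alone, and that of Hsd17b7 was kept without each of them. With HDM201 in old males 0 of 27 passed. Between the young sexes, 2 of 27 were higher and 6 lower in males, where 4.91% of all genes were higher and 5.63% lower. Cyp17a1 was lower in males by a log2 difference of -2.27 (SE 0.23, edgeR FDR 7.33e-05) and Hsd17b6 by -1.20 (SE 0.27, FDR 0.017). Cyp21a1, a 21-hydroxylase known from the adrenal cortex, was higher in males by 6.14 (SE 0.89, FDR 0.00126) at 1.94 ± 1.85 CPM in 4 mice.

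Hsd3b7 belongs to bile acid synthesis, and of the other genes of that pathway 0 of 15 passed with HDM201 in either sex or with age in males. With age in females 2 fell, among them Cyp27a1, the sterol 27-hydroxylase, by 0.41 in log2 (FDR 0.00521 in edgeR, SE 0.09). Between the young sexes 2 were higher and 1 lower in males, where 4.91% of all genes were higher and 5.63% lower. Cyp7b1, the oxysterol hydroxylase of the alternative pathway, was higher by 1.95 (SE 0.22, edgeR FDR 0.000164) and Scp2, a sterol carrier and thiolase, by 1.13 (SE 0.12, FDR 9.81e-05). Hsd3b7 differed by 0.10 (SE 0.27) in that comparison, in counts that differ from its FPKM as described above.

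Sex-biased liver genes set the frame for Hsd3b2 and Hsd3b5. Between the young sexes, 19 of 22 tested male-biased genes were higher in males and 21 of 25 female-biased genes lower. Cyp4a12a, a male fatty acid hydroxylase, had 151 ± 39.1 CPM in 4 young males and 0.112 ± 0.13 in 5 young females (edgeR FDR 1.27e-08). Mup7 and Cyp4a12b also stood higher in males, and Cyp2b13, Cyp3a41a and Cyp3a16 had 0 CPM in young males. With age in females, 9 of 16 male-biased genes fell and 1 rose, and 13 of 25 female-biased genes rose and 6 fell. Slco1a1, the gene most like Hsd3b3, fell by 4.28 in log2 (FDR 4.82e-06 in edgeR, SE 0.30), and Cyp2d9, the gene most like Hsd3b2, fell by 2.94 (SE 0.22, FDR 5.07e-06). Their likeness was computed over these same mice, so a fall alongside Hsd3b3 and Hsd3b2 is no separate support. Susd4 fell by 2.44 (SE 0.26, FDR 6.44e-05). Of the female-biased genes A1bg and Cyp3a41b rose, by 4.22 and 3.77, whereas Sult3a1 fell by 3.96.

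With HDM201 in old females, 3 of 25 female-biased genes rose and 1 of 16 male-biased genes fell. Over all genes tested 2.35% rose and 2.90% fell. The female-biased genes that rose were Sult1e1 by 2.27 (SE 0.54, edgeR FDR 0.037), Abcd2 by 0.76 (SE 0.12, FDR 0.0096) and Cyp4a10 by 0.73 (SE 0.08, FDR 0.00239). Of these only Abcd2 was also called lower in young males than in young females. Sult1e1 and Cyp4a10 are female-biased by the list used, and neither was called between the young sexes. The call of Sult1e1 was lost without 6 of 9 single mice. Hsd3b2 and Hsd3b5, lower in females, overlapped between these groups. With age in males, 1 of 24 male-biased genes rose, Mup20 by 0.95 (SE 0.23, edgeR FDR 0.0496), and 3 of 15 female-biased genes rose and 2 fell. Ntrk2 rose by 3.45 (SE 0.62, FDR 0.0197) and Cyp2b9 by 4.19 (SE 1.00, FDR 0.0497). Cyp2b13 rose from 0 CPM in all young males to 3.43 ± 2.59 in 4 old males. With single mice left out, the call was lost in 8 of 8 cases for Mup20, 6 of 8 for Cyp2b9, 3 of 8 for Cyp2b13 (without old vehicle male 4 or young vehicle male 3 or 4) and 1 of 8 for Ntrk2 (without young vehicle male 4). With HDM201 in old males 0 of 24 and 0 of 15 passed in edgeR. Over all genes in that comparison 1710 of 14109 had an unadjusted p under 0.05, and DESeq2 called 163.

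Genes of growth hormone and sex steroid signalling were tested as well. With age in females Stat5a rose by 0.80 (SE 0.12, edgeR FDR 0.000679), Socs3 by 0.91 and Igfals by 0.61. Igf1 fell by 0.34 and the bile acid receptor gene Nr1h4 by 0.49. Between the young sexes Onecut1, Socs3 and Rora were higher in males, by 1.61, 0.97 and 0.39, and Nr1i3 and Esr1 lower, by log2 differences of -1.05 and -1.03. The calls of Igf1 (7 of 9 mice), Onecut1 and Esr1 (6 of 9 mice each) were lost without most single mice. With HDM201 in old females Hnf4a fell by 0.27 (SE 0.06, edgeR FDR 0.032), a call lost without 6 of 9 mice. With HDM201 in old males Cish, an inhibitor induced by STAT5, fell by 1.79 (SE 0.20, edgeR FDR 0.035), from 32.8 ± 10.4 CPM in 4 to 9.42 ± 1.76 in 5 mice, and it was the only gene of 14109 called. Cish lost its call without old HDM201 male 1, 2, 3 or 5 (FDR 0.0666 to 0.183 in edgeR), while its log2 fold change stayed between -1.92 and -1.56 with any mouse left out. In the same males the Hsd3b5 groups overlapped.

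Macrophage and Kupffer cell markers moved with the female comparisons. Their summed CPM over 8 genes was 182 to 264 in young vehicle, 280 to 564 in old vehicle and 172 to 274 in old HDM201 females. Of the 8 markers, 7 rose with age and 7 fell with HDM201 in females. Hsd3b3 moved the opposite way in both comparisons, and the part of these cells in its values was not tested. Summed B and plasma cell markers were 3.94 to 5.51 CPM in young vehicle, 17.8 to 33.8 in old vehicle and 10.1 to 20.3 in old HDM201 females, and 5 of 6 rose with age. Summed cholangiocyte markers were 42.9 to 49.7, 49.9 to 71.6 and 83.8 to 148 CPM in these groups, and 2 of 5 rose with age and 2 with HDM201. Of the stellate cell markers 3 of 5 rose with age in females, and 1 of 6 hepatocyte and 1 of 5 endothelial markers fell. Between the young sexes 5 of 8 macrophage, 2 of 5 cholangiocyte, 2 of 5 endothelial and 1 of 5 stellate cell markers were lower in males, where Hsd3b2 and Hsd3b5 were higher, and the part of these cells was again not tested. The summed hepatocyte markers overlapped between the female groups, at 94839 to 133250 CPM.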

How the data were processed

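RNA-seq of whole liver was analysed in 27 mice with counts and 29 with FPKM. Per the labels and the methods of the study, the authors used the 2-pass mode of STAR on the mm10 genome, filtered the alignments with SAMtools, and deposited raw HTSeq counts per gene. They made FPKM with Cufflinks, which the authors deposited for 29 mice. Strand and multiple match settings and read length are not given in the sources used here. Empty FPKM cells were read as 0. Counts of old vehicle male 1 and young vehicle male 5 were not analysed here. Per the methods 1 young male was left out of the study for a wound, and which mouse that was is not known here.

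In R 4.3.3, edgeR 4.0.16 was fitted for each comparison on its own 2 groups (filterByExpr with minimum count 10 and minimum total 15, TMM scaling, then the quasi-likelihood test with an FDR by Benjamini-Hochberg under 0.05). Interaction terms used 4 groups. CPM used TMM factors over all 27 mice, and standard errors are the log2 fold change over the square root of F. The script was tested on simulated data. Gene models came from GENCODE M21 on mm10 (54673 of 55421 gene identifiers matched), promoters from RefSeq GRCm38.p6. The members and gene lists were chosen with earlier results of these data known. Beyond the members and their relatives, the text names up to 3 genes per list and comparison with the largest change among called genes without overlap in CPM, called genes of the signalling list, the 5 genes most like each member, and genes overlapping a member. Some genes that this rule names are not reported here. Alternatives were DESeq2 1.42.0, other size factors, no filter, all 6 groups in 1 fit, FDR 0.01, replicate numbers as a block, each mouse left out and FPKM. Whether the mice of a group are littermates is not stated, so p-values measure the spread between these mice.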

Additional observations from a re-analysis of the deposited data

Results flagged for a closer look

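Hsd3b3 in young vehicle male 5 was 36.5 FPKM, farther from the other 4 young males than Dixon's limit for 5 values allows (gap over range 0.867). It was the 1 case among 22 groups tested in FPKM, and 0 of 22 were found in CPM, where this mouse has no value. Chance alone gives about 1 in 20 groups.

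The effect of age differed between the sexes for 1 of 27 tested genes of steroid metabolism, Akr1c14, a hydroxysteroid dehydrogenase of the aldo-keto reductase family (male minus female log2 effect 0.56, SE 0.15, edgeR FDR 0.0415). The same term was called for Igfals (-0.89, SE 0.23, FDR 0.037), a partner of circulating IGF1 and 1 of 24 tested signalling genes. Both counts are near the 3.92% of all genes called for this term. With 1 of 17 mice left out at a time, the call was lost in 11 cases for Akr1c14 and in 13 for Igfals, and both were lost with the replicate numbers as a block. The effect of HDM201 differed between the sexes for Cish (-2.36, SE 0.35, edgeR FDR 0.04), a call that the replicate block ended, as did leaving out any 1 of 4 mice (HDM201 males 1 and 5, vehicle old females 1 and 2).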

How the results depend on the processing

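In the 5 comparisons of 2 groups, no alternative run turned the sign of a member log2 fold change that passed the FDR in edgeR. The members were chosen with these values in view, so nothing is read from that. Among values that did not pass, the sign turned in 7 of 16 alternatives for Hsd3b2 with age in males. It turned in 6 of 17 for Hsd3b7 between the young sexes, 5 of 17 for Hsd3b3 with HDM201 in males and 3 of 17 for Hsd3b2 with HDM201 in females. For the sex difference in the age effect, the fits to counts gave 0.90 to 1.11 for Hsd3b2 and 1.45 to 1.65 for Hsd3b3. Hsd3b2 with age in females ran from -1.13 to -0.75, Hsd3b3 with age in females from -1.76 to -1.49 and with HDM201 in females from 0.39 to 0.51, Hsd3b2 between the young sexes from 0.93 to 1.49 and Hsd3b5 between the young sexes from 3.13 to 4.66. Hsd3b5 with age in females was -1.53 on log2(FPKM + 1) and -3.85 on log2(FPKM + 0.1), because the pseudocount sets the value of genes near 0, and without young vehicle female 1, 2, 3 or 4 the gene did not pass the filter. Hsd3b5 with age in males ran from -2.02 (replicate block) to 0.10, and with HDM201 in males from -1.48 to 0.23, the positive values all in FPKM. FPKM over the 27 mice with counts was added after seeing the data.

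The labels do not say whether the replicate numbers pair the mice. Same-numbered mice correlated at -0.234 to 0.241 in their deviations from group means. Mice with different numbers were not compared, so this cannot decide whether the numbers mark pairs. With the number as a block, the steroid and bile acid genes called were 1 with HDM201 in females and 0 for the sex difference in the age effect, and the sex-biased genes called with age in males were 1.

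Other counts moved by more than 1.5 times, and the cause was not tested. For steroid and bile acid genes together the numbers in edgeR were 2 with HDM201 in females, 0 in males, 18 with age in females, 0 in males, 11 between the young sexes, 0 for treatment by sex and 1 for age by sex. For sex-biased genes they were 4, 0, 29, 6 and 40 in the first 5. DESeq2 called 4 steroid and bile acid genes with HDM201 in females, 4 in males, 2 with age in males, 2 for treatment by sex and 5 for age by sex, and 2 sex-biased genes with HDM201 in males. Without the filter, steroid and bile acid genes were 1 with HDM201 in males, 3 with age in males and 2 for age by sex, and sex-biased genes 12 with age in males. In 1 fit of all 6 groups, steroid and bile acid genes were 1 with HDM201 in either sex and 4 with age in males, and sex-biased genes were 1 with HDM201 in females, 19 with age in females and 11 in males. At FDR 0.01, steroid and bile acid genes were 1 with HDM201 in females and 6 between the young sexes, and sex-biased genes were 2 with HDM201 in females and 0 with age in males.

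With each mouse left out in turn, steroid and bile acid genes ran from 1 to 2 with HDM201 in females, 0 to 1 in males (1 without old vehicle male 3), 15 to 20 with age in females, 0 to 2 in males (2 without young vehicle male 1), 7 to 13 between the young sexes (7 without young vehicle male 3), 0 to 1 for treatment by sex (1 without old HDM201 male 4) and 0 to 8 for age by sex (8 without young vehicle male 1). The count with HDM201 in females was 1 without any one of the old vehicle females or of old HDM201 females 1, 3 and 4. Sex-biased genes ran from 2 to 5 with HDM201 in females (2 without old HDM201 female 4, and also without female 2 of old vehicle), 27 to 29 with age in females, 2 to 6 in males (2 without old vehicle male 4 or young vehicle male 3 or 4, 3 without young vehicle male 2) and 39 to 45 between the young sexes, and stayed at 0 with HDM201 in males. Over all genes, calls with single mice left out ran from 185 to 956 with HDM201 in females (DESeq2 with all mice 1329), 0 to 13 in males (163), 3502 to 4494 with age in females (4813), 144 to 579 in males (1318), 764 to 1864 between the young sexes (2078), 0 to 314 for treatment by sex (651) and 207 to 1193 for age by sex (1182). With log2(CPM + 0.1), 15 of the 20 genes most like the members were the same.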
